A study of Bos taurus with 18 samples.

Results

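The imprinted growth regulators described here are PHLDA2, PEG10, PEG3, SNURF, MEST, NNAT, IGF2 and IGF2R. They were found as every probe set to which the array's platform annotation gives 1 of these symbols and no other gene, which gave 21 of 24016 probe sets and 8 of 9155 genes. PEG3 had 5 probe sets, MEST and IGF2 had 4 each, SNURF, NNAT and IGF2R had 2 each, and PHLDA2 and PEG10 had 1 each. A probe set is a group of short array probes for a transcript, and its values are log2 expression values, so that a step of 1 is a doubling.

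The RNA came from bovine blastocysts of mixed breed, produced in vitro with sorted semen and frozen on day 7 after insemination. Semen from bulls 1, 2 and 3 gave female and male embryos, so that there were 6 groups, and each group had 3 arrays. Each array held RNA pooled from 60 blastocysts of 1 sex and 1 bull, which makes 9 female and 9 male arrays, and 6 arrays for each bull. No group was treated, and the labels give all groups the same production, freezing and RNA protocols. Each bull is a single sire, and because whole blastocysts were pooled, the arrays cannot tell fewer cells of a type from less RNA per cell. Whether pools of a group share a fertilisation run is not stated in the labels, so p-values reflect the spread between these pools alone, which may be technical.

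Imprinted genes are read mainly from the copy inherited from a given parent, which is fixed by DNA methylation laid down in the egg or the sperm. PHLDA2 and IGF2R are in general read from the maternal copy and act against growth, whereas PEG10, PEG3, MEST, NNAT, SNURF and IGF2 are read from the paternal copy, and many of these support the placenta or growth. In the blastocyst the trophectoderm, the outer layer that forms the placenta, is the main tissue in which several of them are known to act. All 8 genes lie on autosomes in the RefSeq table used for names, on chromosomes 29 (PHLDA2 and IGF2), 4 (PEG10 and MEST), 18 (PEG3), 21 (SNURF), 13 (NNAT) and 9 (IGF2R). The arrays measure the sum of both parental copies and do not show which copy was read.

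The array medians lay between 5.325 and 5.489. On 4 arrays the relative spread, the interquartile range of the values about each probe set's median, was 0.267 to 0.349, against 0.168 to 0.198 on the other 14. These were male bull 1 replicate 2, female bull 1 replicate 3, male bull 2 replicate 1 and male bull 3 replicate 3. Several markers of the blastocyst had high values in both sexes, such as KRT18 of the trophectoderm at 14.04 ± 0.06 on female and 14.04 ± 0.07 on male arrays (SD, n = 9), POU5F1 of the inner cell mass at 11.93 ± 0.06 and 11.93 ± 0.08, and GATA6 of the primitive endoderm at 12.43 ± 0.07 and 12.35 ± 0.09. Others were low, such as ELF5 (3.70 and 3.57) and HNF4A (4.03 and 4.11). By sex, 3 of 8 trophectoderm genes differed, IFNT2 toward females (0.59 log2, adjusted p = 0.000678) and PAG2 and TFAP2A toward males (-0.68 and -0.54 log2, adjusted p = 0.0103 and 0.0319). In the primitive endoderm list 2 of 7 differed, RBP4 toward females (0.92 log2, adjusted p = 1.64e-05) and GATA4 toward males (-0.22 log2, adjusted p = 0.0324), and in the inner cell mass list 0 of 3.

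Of the genes that mark further cell types, 5 of 12 of cumulus and granulosa cells differed by sex (4 higher in females and 1 in males), as did 3 of 5 blood genes (2 and 1), 1 of 6 oocyte genes and 4 of 6 sperm genes (2 and 2), against 20.8% of all genes. The sperm gene PRM1 was higher in females by 1.73 log2 (adjusted p = 1e-07), more than any of the 8 imprinted genes, TNP1 by 0.88 and the cumulus and granulosa gene TIMP2 by 0.70. The sperm genes ODF2 and SPA17 (-0.25 and -0.28 log2) and the cumulus and granulosa gene COL1A2 (-0.26 log2) were higher in males. The mean log2 value over the cumulus and granulosa list was 5.75 to 6.44 on female arrays and 5.56 to 6.36 on male arrays. That over the sperm list was 5.78 to 6.08 and 5.49 to 5.84. Their part in the results below was not tested.

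Between the sexes, PHLDA2 and PEG10 differed most in probe set signal, at more than and nearly 2-fold. PEG3, MEST and NNAT were modestly higher in females, and SNURF was modestly higher in males. IGF2 and IGF2R did not pass the test. Of the 21 probe sets, 8 were higher in females and 1 in males in limma's test at an adjusted p under 0.05, against 15.6% of all probe sets in either direction, 8.12% in the direction of females and 7.47% in that of males. On the brightest probe set of each gene, 6 of the 8 genes differed, 5 toward females and 1 toward males, against 20.8% of 9155 genes in either direction, 11.5% toward females and 9.31% toward males. The median sex difference, females minus males, was 0.04 log2 over the 21 probe sets and -0.03 over all. On the brightest probe sets it was 0.28 log2 for the 8 genes and -0.01 for all genes. Without bull 2 the count of 9 fell to 5, and that over all probe sets fell from 3743 to 2044. The 8 genes were chosen with earlier results of these data known, so their shares cannot test imprinted genes as a class.

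**Figure D1:**
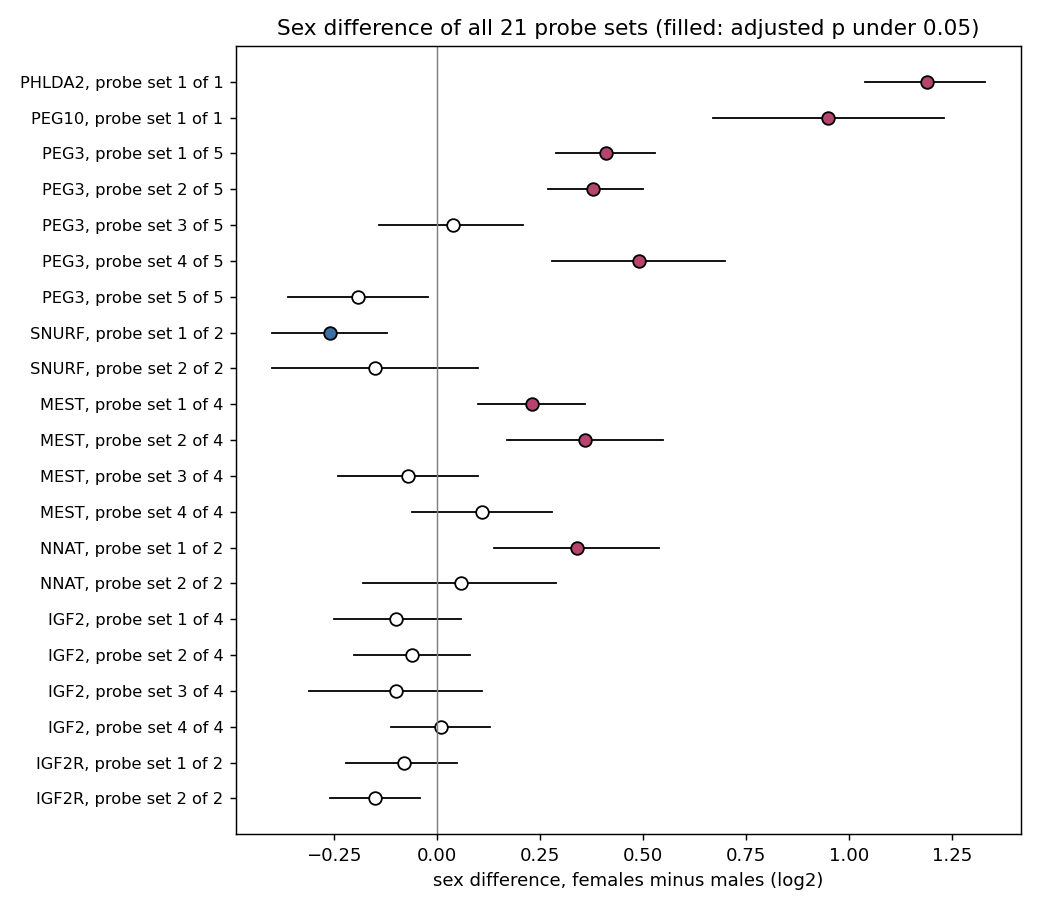
Sex difference (females minus males, log2 scale) of all 21 probe sets, with bars for the 95% confidence interval of the limma fit and, within a gene, probe sets in order of brightness. Filled points passed at an adjusted p under 0.05, and PHLDA2 and PEG10 stand apart at 1.19 and 0.95, while every interval of IGF2 spans 0.

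PHLDA2, a pleckstrin homology domain protein that restrains placental growth, had the largest sex difference of the 8 genes. Its probe set stood at 8.08, 8.24 and 8.31 on the female arrays of bull 1 and at 7.18, 7.25 and 6.82 on the male ones. In bull 2 the females stood at 7.97, 7.90 and 8.0 and the males at 6.89, 6.75 and 7.11. In bull 3 the females stood at 8.5, 8.52 and 8.37 and the males at 7.17, 6.90 and 7.15. The lowest female array of all, at 7.90, lay above the highest male array, at 7.25, so that the sexes did not overlap in any bull. The means were 8.21 ± 0.23 in females and 7.02 ± 0.19 in males (SD, n = 9), a difference of 1.19 log2 (SE 0.07, 95% confidence interval 1.04 to 1.33), or 2.28-fold, with an adjusted p of 3.57e-09.

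In order of mean, the PHLDA2 groups ran from females of bull 3 (8.46) over females of bull 1 (8.21) and bull 2 (7.96) to males of bull 1 (7.08), bull 3 (7.07) and bull 2 (6.91). The arrays of neighbouring female groups did not overlap, and those of neighbouring male groups did. Females exceeded males by 1.13, 1.04 and 1.39 log2 in bulls 1, 2 and 3, with adjusted p-values of 4.03e-05, 7.22e-05 and 7.71e-06, and its difference between bulls did not pass (adjusted p = 1). The call over the bulls and that within each bull held in all of the fits run, with a difference over the bulls of 1.085 to 1.258 log2.

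PEG10, a protein derived from a retrotransposon and needed for the placenta in mice, was the other gene whose sexes did not overlap. Its probe set stood at 4.82, 4.53 and 5.34 in females of bull 1, against 4.17, 3.64 and 4.26 in males. In bull 2 the females stood at 4.84, 4.80 and 4.83 and the males at 3.90, 3.50 and 4.0. In bull 3 the females stood at 4.47, 5.09 and 5.43 and the males at 4.18, 3.72 and 4.24. Every female array, from 4.47 up, lay above every male array, up to 4.26, and the spread within females was wide in bulls 1 and 3 and narrow in bull 2. The means were 4.91 ± 0.33 and 3.96 ± 0.28, a difference of 0.95 log2 (SE 0.13, interval 0.67 to 1.23), or 1.93-fold, with an adjusted p of 6.08e-05. The probe set was dim, with a mean over all arrays of 4.43. Differences of dim probe sets are compressed, so this fold does not give that of the PEG10 transcript. No overlap with females above males was found for 1.99% of all probe sets, and for 2 of these 21.

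The order of the PEG10 groups was females of bull 3 (5.0), bull 1 (4.90) and bull 2 (4.82), then males of bull 3 (4.04), bull 1 (4.02) and bull 2 (3.80), and within each sex the arrays of neighbouring groups overlapped. Females exceeded males by 0.87, 1.02 and 0.95 log2 in bulls 1, 2 and 3 (adjusted p = 0.039, 0.0175 and 0.0233). That of bull 1 was 0.462 log2 without the 4 arrays of wide spread (adjusted p = 0.386), 0.655 without female bull 1 replicate 3 (adjusted p = 0.181) and 0.682 without male bull 1 replicate 2 (adjusted p = 0.165). It also missed the threshold without female bull 1 replicate 1, male bull 1 replicate 1, any female array of bull 2 or female bull 3 replicate 2 (adjusted p = 0.0512 to 0.0833). That of bull 2 missed it without male bull 2 replicate 2 or any female array of bull 2 (adjusted p = 0.06 to 0.107), and that of bull 3 without male bull 3 replicate 2 or female bull 3 replicate 2 or 3 (adjusted p = 0.0921 to 0.151). Without moderation of the variance none of the 3 passed (adjusted p = 0.109, 0.0758 and 0.0836), and with array weights that of bull 1 was 0.578 log2 (adjusted p = 0.112).

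PEG3, a zinc finger protein that in mice affects growth and maternal care, was higher in females on 3 of its 5 probe sets. The brightest stood at 7.82, 7.62 and 7.78 in females of bull 1 and at 7.29, 7.17 and 7.17 in males. In bull 2 it stood at 7.87, 7.73 and 7.78 in females and 7.27, 7.41 and 7.35 in males. In bull 3 it stood at 7.68, 7.61 and 7.49 in females and 7.50, 7.31 and 7.23 in males. The sexes were apart in bulls 1 and 2, and in bull 3 the highest male array lay just above the lowest female one. Over the bulls the means were 7.71 ± 0.12 and 7.30 ± 0.11, a difference of 0.41 log2 (SE 0.06, interval 0.29 to 0.53, adjusted p = 3.78e-05).

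The probe sets of PEG3 at places 2 and 4 by brightness differed by 0.38 log2 (SE 0.05, adjusted p = 5.52e-05) and 0.49 log2 (SE 0.10, adjusted p = 0.00211). The third stood at 6.78 ± 0.21 in females and 6.74 ± 0.13 in males, a difference of 0.04 log2 (interval -0.14 to 0.21). The dimmest stood at 3.78 ± 0.18 and 3.96 ± 0.19, or -0.19 log2 (interval -0.36 to -0.02, adjusted p = 0.129), and with array weights it passed toward males (-0.183 log2, adjusted p = 0.0449), opposite to the 3 others. The probe sets of PEG3 therefore disagreed, and the files do not show which part of the transcript each one covers. In bull 2 the brightest missed the threshold without male or female replicate 1 of that bull (adjusted p = 0.0604 and 0.0674) and where the 5 probe sets were averaged (0.221 log2, adjusted p = 0.102), and in bull 1 the one at place 4 did so without female bull 1 replicate 1 (adjusted p = 0.0541). On the 3 that passed, the sex difference in bull 3 was 0.25, 0.11 and 0.23 log2, against 0.53, 0.52 and 0.79 in bull 1 and 0.45, 0.52 and 0.46 in bull 2. The test of a difference between bulls did not pass on any of them (adjusted p = 1 for each), with unadjusted p-values of 0.124, 0.00829 and 0.104.

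MEST, a paternally read gene of the hydrolase family that promotes growth of the fetus and placenta in mice, was higher in females on its 2 brighter probe sets. The brightest ranged from 6.95 to 7.33 with a median of 7.15 in females and from 6.72 to 7.16 with a median of 6.93 in males. The sexes overlapped, and 4 of 9 female arrays lay above every male one, while within bulls 1 and 3 all female arrays lay above the male ones. The difference was 0.23 log2 (SE 0.06, interval 0.10 to 0.36, adjusted p = 0.0146), and it lost its call without any of the bulls (adjusted p = 0.0603, 0.113 and 0.0799 without bulls 1, 2 and 3). The second differed by 0.36 log2 (SE 0.09, adjusted p = 0.00972), of which most lay in bull 2. There the females stood at 5.51, 5.39 and 5.99 and the males at 5.01, 4.71 and 4.94, a difference of 0.74 log2 (adjusted p = 0.0104), against 0.15 and 0.19 in bulls 1 and 3. That of bull 2 missed the threshold without male bull 2 replicate 2 (adjusted p = 0.0678) or female bull 2 replicate 3 (adjusted p = 0.0758). Without bull 2 the difference of this probe set over the bulls was 0.17 log2 (adjusted p = 0.401), and with bull as the replicate its adjusted p was 0.0511. The 2 dim probe sets of MEST, with means over all arrays of 3.87 and 3.49, differed by -0.07 and 0.11 log2 and did not pass.

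NNAT, neuronatin, a small membrane protein best known from the developing brain, was higher in females on 1 of its 2 probe sets. That probe set ranged from 5.31 to 6.14 with a median of 5.59 in females and from 4.65 to 6.07 with a median of 5.25 in males, so that the sexes overlapped widely. The difference was 0.34 log2 (SE 0.09, interval 0.14 to 0.54, adjusted p = 0.0183). It was 0.21 log2 and no longer passed without the 4 arrays of wide spread (adjusted p = 0.111), and it also lost its call without bull 2 or bull 3 (adjusted p = 0.175 and 0.0543). With array weights it was 0.173 log2 (adjusted p = 0.131), and the average of both NNAT probe sets gave 0.198 log2 (adjusted p = 0.089). The other NNAT probe set differed by 0.06 log2 (interval -0.18 to 0.29).

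SNURF, which shares a transcript with the splicing protein gene SNRPN, was the only member that the main test called toward males. Its brightest probe set stood at 8.77, 8.66 and 8.84 in females of bull 1 and at 9.16, 9.45 and 8.88 in males. In bull 2 it stood at 8.71, 8.75 and 8.76 in females and 8.97, 8.95 and 8.94 in males. In bull 3 it stood at 8.88, 8.99 and 8.85 in females and 9.02, 9.19 and 9.0 in males. Within each bull every male array lay above every female array, though the sexes overlapped once the bulls were pooled. The difference was -0.26 log2 (SE 0.07, interval -0.40 to -0.12, adjusted p = 0.00925), and without bull 2 it was -0.285 log2 and no longer passed (adjusted p = 0.0792), nor did the average of both SNURF probe sets (-0.204 log2, adjusted p = 0.0639).

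The other SNURF probe set differed by -0.15 log2 (interval -0.40 to 0.10) and did not pass. Its lowest value, 7.14, was on male bull 3 replicate 3, whereas the next male array stood at 7.99. On that array the 5′ minus 3′ signal of the GAPDH control probe sets, a sign of RNA integrity, was -1.742, the lowest of the 18, against -0.644 and -0.635 in the other males of bull 3. The same measure on the actin control probe sets was -1.636 there, within the range of the other arrays and above the other males of bull 3 (-1.875 and -2.254). Without this array the difference was -0.27 log2 and passed (adjusted p = 0.0153). The part of RNA integrity in this was not tested.

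IGF2, insulin-like growth factor 2, and IGF2R, the receptor that carries IGF2 to the lysosome and so lowers it, did not pass the sex test on any of their probe sets. The brightest IGF2 probe set ranged from 5.31 to 5.98 with a median of 5.59 in females and from 5.64 to 5.94 with a median of 5.69 in males. The sexes overlapped over the bulls, though in bull 2 the females (5.65, 5.57 and 5.59) lay just below the males (5.69, 5.72 and 5.69), and the difference was -0.10 log2 (SE 0.08, interval -0.25 to 0.06). A second probe set made from the same accession was dimmer and gave -0.10 log2 (interval -0.31 to 0.11). The remaining 2 gave -0.06 (interval -0.20 to 0.08) and 0.01 (interval -0.11 to 0.13). A sex difference in IGF2 probe set signal larger than 0.31 log2 in either direction lies outside all 4 intervals. The 4 probe sets had means over all arrays of 5.67, 4.99, 4.11 and 3.84, in order of brightness. Differences of dim probe sets are compressed, so the intervals do not bound the difference in IGF2 transcript.

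The brightest IGF2R probe set had a mean of 9.66 ± 0.13 in females and 9.74 ± 0.15 in males, with a difference of -0.08 log2 (SE 0.06, interval -0.22 to 0.05). The sexes overlapped in bulls 1 and 2, and in bull 3 the females (9.51, 9.63 and 9.62) lay below the males (9.86, 9.83 and 9.64). The other stood at 7.55, 7.66 and 7.57 in females of bull 1 and at 7.55, 7.63 and 7.50 in males. In bull 2 it stood at 7.64, 7.46 and 7.67 in females and 7.89, 7.89 and 7.68 in males. In bull 3 it stood at 7.60, 7.54 and 7.59 in females and 7.91, 7.81 and 7.75 in males. Males lay above females in bulls 2 and 3 and not in bull 1. The difference over the bulls was -0.15 log2 (SE 0.05, interval -0.26 to -0.04, adjusted p = 0.0681), and it passed without bull 1 (-0.24 log2, adjusted p = 0.0271), without male bull 2 replicate 3 (-0.17 log2, adjusted p = 0.0382), with array weights (adjusted p = 0.0243), without moderation (adjusted p = 0.0252) and among the brighter 50% of probe sets (adjusted p = 0.0273).

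**Figure D2:**
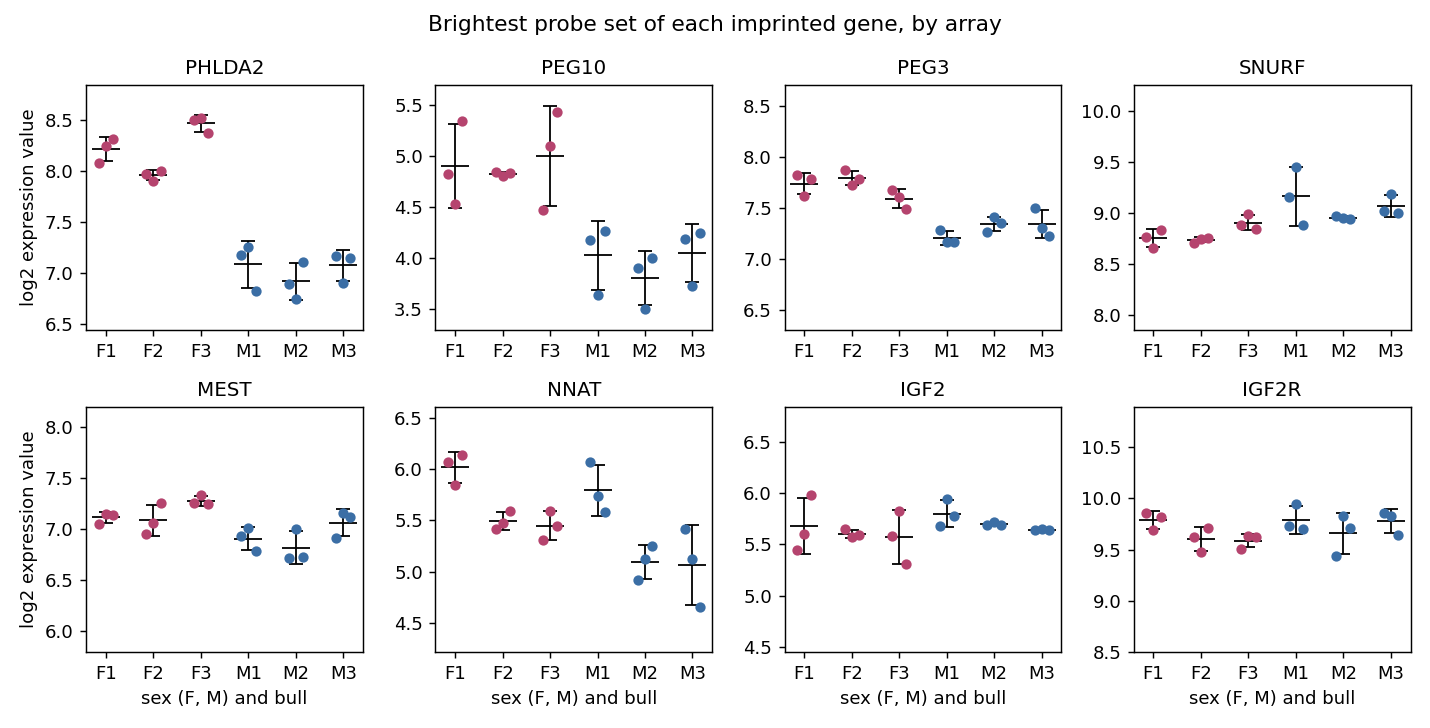
Log2 expression value of the brightest probe set of each of the 8 genes on all 18 arrays, by sex (F, M) and bull, with the group mean and SD (n = 3) as bars. All panels have the same height in log2 units, and levels are not comparable between genes. The sexes do not overlap for PHLDA2 and PEG10, while those of IGF2 and IGF2R overlap once the bulls are pooled.

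Within single bulls, PHLDA2 and PEG10 were the only members whose probe set was called in each, though for PEG10 this did not hold without moderation of the variance. In bull 1, 6 of 21 probe sets differed between the sexes, against 4.2% of all probe sets, namely PHLDA2, PEG10, the 3 of PEG3 and, at an adjusted p of 0.0496, the brighter one of SNURF. In bull 2, 5 differed, against 3.13%, namely PHLDA2, PEG10, 2 of PEG3 and 1 of MEST. In bull 3, 2 differed, against 4.18%. Leaving out 1 array lowered the count to 3 in bull 1 (without female bull 1 replicate 1), to 3 in bull 2 (without male replicate 2, female replicate 1 or female replicate 3 of that bull) and to 1 in bull 3 (without male replicate 2, female replicate 2 or female replicate 3 of that bull). The SNURF call of bull 1 held without male bull 3 replicate 2 or 3 or male bull 1 replicate 3 and was lost in the other 15 of 18 such fits (adjusted p = 0.0586 to 0.186), as well as without moderation (0.0608), with the block (0.0595), with probe sets averaged (0.0799) and without the 4 arrays of wide spread (0.132). No probe set of the 21 passed the test of a sex difference that itself differs between bulls, against 0% of all probe sets. Of all 24016, 656 had an unadjusted p under 0.05, a smaller share than that threshold gives by chance. The fit without moderation also called 0.

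Between the bulls, MEST was lowest in bull 2 and NNAT was highest in bull 1. No batch of embryo culture or scanning is labelled, so that a sire and any batch tied to it cannot be told apart, and the 3 comparisons of bulls share arrays. Between bulls 2 and 1, 2 of the 21 probe sets differed, against 1.52% of all, and both were lower in bull 2, as were 1.04% of all. Between bulls 3 and 1, 2 differed, against 3.53%, both lower in bull 3, as were 2.35% of all. Between bulls 3 and 2, 2 differed, against 3.74%, both higher in bull 3, as were 1.69% of all.

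The MEST probe set that separated the bulls was the second by brightness. Its females stood at 5.97, 5.81 and 6.23 in bull 1, at 5.51, 5.39 and 5.99 in bull 2 and at 6.43, 6.4 and 6.19 in bull 3. Its males stood at 5.72, 5.72 and 6.12 in bull 1, at 5.01, 4.71 and 4.94 in bull 2 and at 5.98, 6.19 and 6.28 in bull 3. The males of bull 2 lay below every other array, and the arrays of every other pair of neighbouring groups overlapped. Bull 3 exceeded bull 2 by 0.99 log2 (SE 0.11, interval 0.75 to 1.22, adjusted p = 0.000113) and bull 2 lay below bull 1 by -0.67 log2 (SE 0.11, adjusted p = 0.00457). The brightest MEST probe set gave 0.22 log2 between bulls 3 and 2 (adjusted p = 0.116) and -0.06 between bulls 2 and 1 (adjusted p = 0.725), so that the 2 brighter probe sets of MEST did not give the same call.

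On its brighter probe set, NNAT stood at 6.07, 5.85 and 6.14 in females and 6.07, 5.74 and 5.58 in males of bull 1. In bull 2 it stood at 5.42, 5.48 and 5.59 in females and 4.92, 5.12 and 5.25 in males. In bull 3 it stood at 5.31, 5.59 and 5.45 in females and 5.42, 5.12 and 4.65 in males. Within each sex the bull 1 arrays lay above those of both other bulls, except that 1 male array of bull 1, at 5.58, was close to the females of the other bulls. Bull 2 differed from bull 1 by -0.61 log2 (SE 0.12, adjusted p = 0.0127) and bull 3 by -0.65 log2 (SE 0.12, adjusted p = 0.0061). The dimmer probe set gave -0.32 log2 (adjusted p = 0.231) and -0.69 log2 (SE 0.14, adjusted p = 0.0109), of which the latter was at an adjusted p of 0.0501 without the 4 arrays of wide spread.

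PHLDA2 was higher in bull 3 than in bull 2 by 0.33 log2 (SE 0.09, adjusted p = 0.0388). This call was lost without any female array of bull 2, male bull 2 replicate 1 or 2, male bull 3 replicate 1 or 3, or female bull 3 replicate 1 or 2 (adjusted p = 0.0612 to 0.102), and with the sample number as a block (adjusted p = 0.0598), without moderation (0.0671) or without the 4 arrays of wide spread (0.0866). PEG10, PEG3, SNURF, IGF2 and IGF2R had no probe set that differed between bulls. Over the 6 arrays of each bull, the mean log2 value of the cumulus and granulosa list was 5.56 to 6.13 in bull 1, 5.86 to 6.44 in bull 2 and 5.58 to 6.19 in bull 3. Of its 12 genes, 3 differed between bulls 2 and 1 (25%, against 2.04% of all genes on the brightest probe set). POSTN (2.16 log2, adjusted p = 0.0197) and DCN (0.84 log2, adjusted p = 0.00383) were higher in bull 2, and CYP19A1 (-0.49 log2, adjusted p = 0.03) was lower. Between bulls 3 and 1, CYP19A1 (-0.40 log2, adjusted p = 0.0437) and TIMP2 (-0.34 log2, adjusted p = 0.0409) were lower in bull 3 (16.7% of the list, against 3.6% of all genes). Between bulls 3 and 2, DCN was lower in bull 3 (-0.66 log2, adjusted p = 0.0114), or 8.33% of the list against 3.33%. By mean, CYP19A1 and TIMP2 were thus highest in bull 1 and POSTN and DCN lowest there, so the list did not move as a whole. The part of these cells in the bull differences was not tested.

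**Figure D3:**
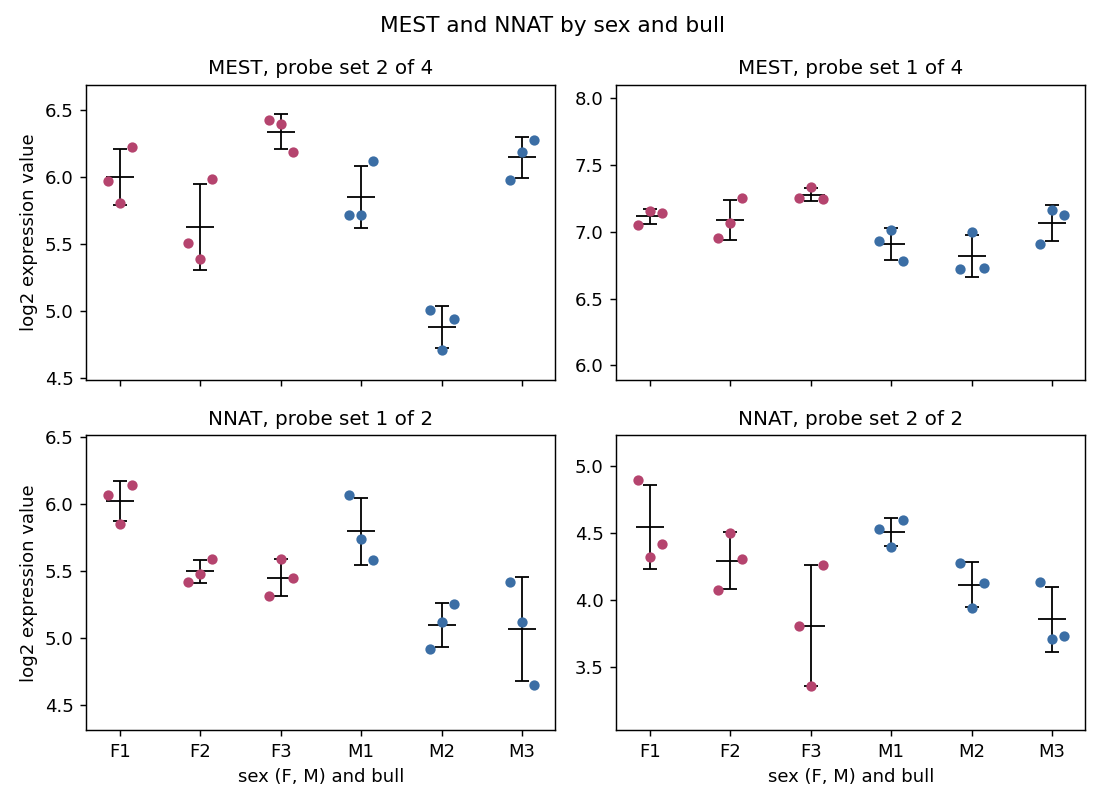
Log2 expression value of 2 probe sets of MEST (top) and 2 of NNAT (bottom) on all arrays by sex (F, M) and bull, with the group mean and SD (n = 3) as bars. The males of bull 2 lie lowest on the MEST probe set at top left, at 4.71 to 5.01, and bull 1 lies highest for NNAT on the probe set at bottom left.

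Imprinted genes lie in clusters that share control regions, so the measured neighbours of each member were set beside it. The 4 nearest measured protein-coding genes on each side, in the order of the RefSeq table, gave 63 genes, since 1 side of SNURF held 3. Of these, 12 differed (4 toward females and 8 toward males), or 19%, against 20.8% of all genes, with a median of -0.05 log2. None of the measured neighbours of PHLDA2 was called toward females. The maternally read SLC22A18 and CDKN1C, a cell cycle inhibitor, lie next to PHLDA2 and gave -0.21 (SE 0.10, adjusted p = 0.167) and -0.19 log2 (SE 0.13, adjusted p = 0.364). SLC22A18 was dim, at 3.97 in females and 4.19 in males, as was KCNQ1, at 3.49 and 3.53. CDKN1C stood at 5.38 and 5.57. Differences of dim probe sets are compressed, so a shared difference could be missed there. All 8 neighbours of PHLDA2 lay below 0, from -0.28 to -0.05 log2, and DHCR7 and NADSYN1 passed toward males.

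SGCE, which shares a start region with PEG10, stood at 3.27 in females and 3.29 in males (-0.02 log2, adjusted p = 0.914), whereas PON1, the nearest measured gene on the other side of PEG10, was higher in females by 0.56 log2 (SE 0.13, adjusted p = 0.00454). Next to PEG3, the provisional gene LOC508098 was higher in females by 0.44 log2 (adjusted p = 0.00606). Near SNURF, the paternally read NDN was higher in females by 0.27 log2 (adjusted p = 0.0102), the opposite of SNURF, and UBE3A gave -0.20 log2 (adjusted p = 0.0895). COPG2, beside MEST, and BLCAP, in whose intron NNAT lies, gave 0.01 and 0.03 log2, though COPG2 was dim, at 2.65 in females and 2.64 in males. TGM2, a protein cross-linking enzyme further from NNAT, was higher in females by 0.61 log2 (adjusted p = 6.15e-05). COL1A2 near PEG10, KLHDC10 near MEST, TTI1 near NNAT and AGPAT4 near IGF2R were higher in males, by -0.26, -0.19, -0.28 and -0.25 log2. ASCL2, a trophectoderm transcription factor measured near IGF2, was higher in males (-0.42 log2, SE 0.10, adjusted p = 0.0067), as was MRPL23 (-0.18 log2, adjusted p = 0.0137).

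**Figure D4:**
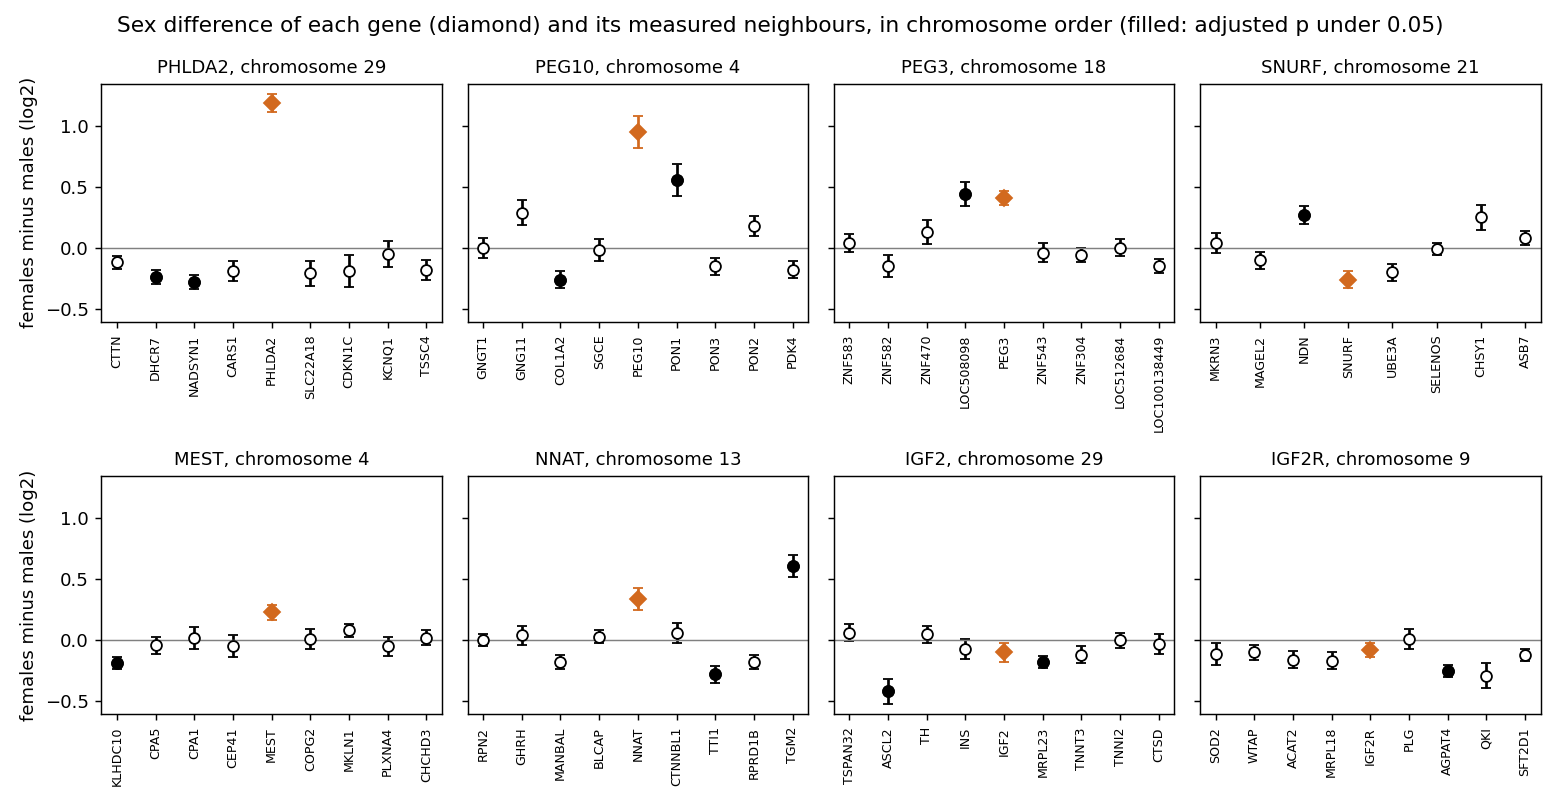
Sex difference (females minus males, log2 scale, bars 1 SE) of the brightest probe set of each member (diamond) and of its measured neighbours in chromosome order (circles, filled where the adjusted p was under 0.05). PHLDA2 stands at 1.19 among neighbours from -0.28 to -0.05, and PEG10 at 0.95 beside PON1 at 0.56.

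Other imprinted genes and genes of imprinted regions did not show the share of calls of the 8 members. Members and lists were chosen with earlier results of these data known, so the 2 shares are a description only. Of 29 measured genes of that list, 2 were higher in females and 3 in males (17.2%, against 20.8% of all genes), with a median of 0.02 log2. The 2 were NDN and DCN, decorin (0.33 log2, adjusted p = 0.0467), and the 3 were ASCL2, DHCR7 (-0.24 log2, adjusted p = 0.00669) and IMPACT (-0.30 log2, adjusted p = 0.0269). The next by p were COMMD1 at 0.18 log2 (adjusted p = 0.0548), L3MBTL1 at 0.18 (adjusted p = 0.0753) and the X-linked MAOA at 0.30 (adjusted p = 0.0809). GRB10, which damps growth factor signalling, and DLK1, a growth regulator of the fetus, gave 0.01 and -0.10 log2.

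Among 16 measured partners of IGF2 and IGF2R, 1 was higher in females and 1 in males (12.5%, against 20.8% of all genes), with a median of -0.04 log2. IGFBP6, a binding protein that prefers IGF2, stood at 7.10 ± 0.20 in females and 6.27 ± 0.26 in males, a difference of 0.83 log2 (SE 0.10, adjusted p = 1.04e-05), with 1.04, 0.67 and 0.76 in bulls 1, 2 and 3. IGF2BP3, an RNA-binding protein named for IGF2 mRNA, was higher in males by -0.29 log2 (adjusted p = 0.012). IGF2BP1, IGFBP1 and PIK3CA came next at 0.16, -0.18 and 0.20 log2 and did not pass (adjusted p = 0.0617, 0.0679 and 0.167). IGF1R, the receptor through which IGF2 signals, stood at 5.46 ± 0.09 and 5.38 ± 0.19.

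Of 10 measured genes whose proteins set or keep imprints, 1 was higher in females and 1 in males (20%, against 20.8% of all genes). EZH2, which methylates histone H3, was higher in females (0.38 log2, SE 0.06, adjusted p = 8.97e-05). DNMT3A, which methylates DNA afresh, was higher in males (-0.33 log2, SE 0.08, adjusted p = 0.00924). DNMT1, which copies DNA methylation at replication, stood at 6.65 ± 0.14 and 6.52 ± 0.22 and did not pass (0.13 log2, adjusted p = 0.338). EHMT2 and SETDB1 gave -0.16 and 0.10 log2 (adjusted p = 0.0748 and 0.408). TRIM28, the corepressor that protects imprints in the early embryo, gave 0.04 log2, and CTCF, the insulator protein of the IGF2 cluster, gave -0.10.

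The genes whose pattern over the 18 arrays was nearest to each member were found among 9020 others by the root mean square gap between values centred on their own means. Nearest to PHLDA2 were the X-linked UBQLN2 (gap 0.19 log2) and MAGEH1 (0.20) and GBP1 on chromosome 3 (0.20), against a median gap of 0.65 and a spread of PHLDA2 about its own mean of 0.63. They were higher in females by 0.98, 1.11 and 1.14 log2. Nearest to PEG10 were IGFBP6 and FEZ1 (0.24 each) and CXCL16 (0.25), against a median of 0.58. For PEG3 they were TSC22D1, IRAK1 and EFHD2 (0.09, 0.10 and 0.11, median 0.29), and for SNURF they were UQCC5, MRPS27 and VAPB (0.06, 0.07 and 0.07, median 0.23), all 3 higher in males. MEST had ZCCHC10, PDE6D and PRPF3 (0.09, 0.10 and 0.10, median 0.24). NNAT had RNASEK, RABAC1 and TYROBP (0.21, 0.22 and 0.22, median 0.42). The arrays and their normalization are shared by all genes, and the gap is a description of these arrays. A small gap brings a sex difference like that of the member, so the sex differences given here follow from how the genes were chosen.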

How the data were processed

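The authors deposited 1 log2 value per probe set and array, and the submitters' processing notes list RMA and Partek 6.4 with no role for either. That the scale is log2 follows from the range of 1.89 to 14.15. Per the labels' protocols, 50 ng of total RNA was amplified and labelled. Normalized arrays cannot show a shift shared by all transcripts, and differences of dim probe sets are compressed. Detection calls and scan dates were not used here. Arrays have no read depth, so precision depends on how many there are.

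Of 24128 probe sets, 112 array controls were left out. Of the rest, the platform annotation pairs 13292 with 1 gene and 86 with several, and leaves 10638 unnamed. Gene numbers gave current symbols through a RefSeq table of ARS-UCD2.0, used only for names, chromosomes and gene order, and 13263 matched.

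A limma model (version 3.58.1, R 4.3.3) with a mean for each of the 6 groups left 12 residual degrees of freedom, and its moderated p-values were adjusted by Benjamini-Hochberg over 24016 probe sets, with a threshold of 0.05. A fold is the antilog of a log2 difference. The script was tested on simulated data. The leading probe set of a gene was the brightest on average over the 18 arrays. Named were all probe sets of the 8 genes, members of 3 further lists that passed the sex test or had the 3 smallest p-values otherwise, with a few chosen after their values were seen (GRB10, DLK1, IGF1R, TRIM28 and CTCF), the neighbours and the 3 nearest patterns. The members and lists were chosen with earlier results of these data known.

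Alternatives were repeated quantile normalization, the brighter 50% of probe sets, an additive model, no moderation, an intensity trend, array weights, the sample number as a block, averaging the probe sets of each gene, bull as the replicate, and leaving out each bull or array. Leaving out 4 arrays with a relative spread over 0.25 was an alternative added after the data were seen. Plots were made in matplotlib 3.10.9.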

Additional observations from a re-analysis of the deposited data

Results flagged for a closer look

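Among the 42 sets of 9 values formed by the 21 probe sets and the 2 sexes, 3 had an array far from the others in Dixon's test, of which chance gives about 1 in 20. The probe set of PEG3 at place 4 by brightness stood at 5.08 on male bull 1 replicate 2, and the next male array at 6.0. The brightest IGF2 probe set stood at 5.94 on the same array, and the next male array at 5.78. That array had a relative spread of 0.335. The dimmer SNURF probe set stood at 7.14 on male bull 3 replicate 3, which had a relative spread of 0.349, and the next male array at 7.99.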

How the results depend on the processing

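Over the bulls, 9 of 21 probe sets differed by sex, 9 to 10 without any 1 array, 5 without bull 2, and 4 of 8 genes (PHLDA2, PEG10, PEG3 and MEST) where the probe sets of each gene were averaged. Such means gave 3, 2 and 1 genes for sex in bull 1, sex in bull 2 and bulls 3 and 1. Counts within bulls 1, 2 and 3 were 3 to 6, 3 to 6 and 1 to 2 without any 1 array. That of bull 3 was 1 among the brighter 50% of probe sets, which left out that of PEG10, 1 without moderation and 4 with array weights. Between bulls 3 and 1 the count of 2 was 1 among the brighter 50%, which left out the dimmer NNAT probe set. It was also 1 without the 4 arrays of wide spread. Between bulls 3 and 2 it was 1 to 3 without any 1 array, and 1 without moderation, with the block and without the 4 arrays. Between bulls 2 and 1 it was 2 in every fit of probe sets. The causes of the other changes were not tested. Deviations of same-numbered female and male arrays of a bull correlated at -0.181 to 0.103, so no pairing within a bull was seen. Whether arrays of the same sample number in different bulls share a batch was not tested. A fit with that number as a replicate block gave 9 probe sets that differed by sex over the bulls, 5, 5 and 2 within bulls 1, 2 and 3, and 2, 2 and 1 for bulls 2 and 1, 3 and 1, and 3 and 2.

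Signs changed for probe sets that passed the sex test in none of the fits. The second IGF2 probe set by brightness was 0.03 log2 without bull 2, and the dimmest was -0.018 without bull 1 and -0.016 to 0.034 without any 1 array. The third MEST probe set was 0.081 without bull 2. The dimmer NNAT one was -0.017 with array weights, -0.005 without bull 2 and -0.017 to 0.133 without any 1 array. The third PEG3 one was -0.027 without bull 3 and -0.015 to 0.079 without any 1 array. Over all 24016 probe sets, the count for sex was 3743, and it was 2044 and 2182 without bulls 2 and 3. Where probe sets were averaged, it was 2096 of 9155 genes. Array weights gave 1740, 1799 and 3144 within bulls 1, 2 and 3, against 1008, 752 and 1004, and 1161, 2045 and 2693 between bulls 2 and 1, 3 and 1, and 3 and 2, against 364, 848 and 897. Without any 1 array the latter were 133 to 607, 271 to 1594 and 384 to 1337, and within bulls 625 to 1240, 422 to 956 and 465 to 1317. Without the 4 arrays of wide spread, 1130 and 1545 differed by sex within bulls 2 and 3, and 228 and 466 between bulls 2 and 1 and 3 and 1. No moderation gave 459 and 555 for bulls 3 and 1 and 3 and 2, and the brighter 50% gave 569 for bulls 2 and 1.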

Other observations

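Among the other imprinted genes, NAP1L5, a retrotransposed gene read from the paternal copy, was lowest in bull 2, as was the MEST probe set, though the order of bulls 1 and 3 was the opposite. It stood at 7.49 ± 0.21, 6.81 ± 0.21 and 7.34 ± 0.14 in bulls 1, 2 and 3 (SD, n = 6 arrays each), and differed between bulls 2 and 1 (-0.68 log2, adjusted p = 0.00224) and between bulls 3 and 2 (0.53 log2, adjusted p = 0.00879). Its sex difference was 0.07 log2. DCN stood at 3.93 ± 0.30, 4.77 ± 0.25 and 4.10 ± 0.35, highest in bull 2, and is also among the cumulus and granulosa markers. GATM, which makes the precursor of creatine, was lower in bull 3 than in bull 1 by -0.62 log2 (adjusted p = 0.0405), and ASCL2 was higher by 0.46 log2 (adjusted p = 0.0452). DNMT3A was lower in bull 3 than in bull 2 by -0.38 log2 (adjusted p = 0.0447). These genes were picked out after their values were seen.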
